A study of Lentinus tigrinus with 27 samples.

Results

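The maturing stipe of Lentinus tigrinus was followed from the young to the full fruiting body. The comparison set the 3 libraries titled as mature (FB) stipe, which carry the numbers 2, 3 and 4, against the 3 titled as young (YFB) stipe, numbered 1 to 3. These are 6 of the 27 libraries of a study that covers 9 groups from vegetative mycelium to the mature mushroom. All samples come from strain RLP-9953-sp, with no genetic change, and PolyA RNA was sequenced from each. Fruiting cultures grew on wheat bran and aspen sawdust, 21 days at 30 °C without light and then at 25 °C with 12 h of light per day. YFB_stipe is the stalk of mushrooms 30 to 40 mm tall whose brown cap initial was at most 5 mm wide, with gills only just visible. FB_stipe is the stalk of mushrooms 50 to 70 mm tall with a fully opened, flat cap. The other groups used here were the stage 1 primordium (P1, 5 to 20 mm, no cap yet), the stage 2 primordium (15 to 25 mm, P2_stipe and P2_cap), the caps of the young and mature stages (YFB_cap, FB_cap), the gills (FB_lamellae) and the vegetative mycelium (VM). The study's design text calls the 3 libraries of a group biological replicates, without saying whether separate mushrooms or separate cultures stand behind them. The p-values of the main fit set a change against the spread between libraries within groups, which was estimated per gene over all 9 groups.

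The stipe is the stalk that lifts the spore-bearing cap into moving air. In well-studied mushrooms such as Coprinopsis cinerea its late growth is mostly elongation of existing hyphal cells, with remodelling of the chitin and glucan wall, while the cap goes on to open its gills and form spores. Stipe and cap arise from the same primordium and part in their gene use as the mushroom grows. The files identify genes only by number, and none of the 15581 identifiers matched the reference table at hand, so no gene can be tied to wall growth, division or any other role, and the tissue labels could not be checked with marker genes. Gene identifiers are printed with _ in place of bars.

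The 6 stipe libraries held between 13.28 and 18.01 M reads assigned to genes, of which 98.8% to 99.2% were uniquely mapped. On correlations of log2(CPM + 1), where CPM is reads per 1 M reads after scaling between libraries by the TMM method (trimmed mean of M values), the young stipe libraries stood between 0.972 and 0.984 to each other and the mature ones between 0.956 and 0.982. Between the stages the correlations were lower, from 0.938 to 0.955. The lowest mature value, 0.956, was between FB_stipe replicates 2 and 4. FB_stipe replicate 3 stood at 0.975 to replicate 2 and at 0.982 to replicate 4. The highest correlation with a P2_stipe library was 0.969 for FB_stipe replicate 2, 0.970 for replicate 3 and 0.960 for replicate 4. The first principal component of the 6 libraries held 55.2% of the variance and separated the stages, and the second, with 22.7%, set FB_stipe replicate 2 against replicate 4. The median SD between libraries of a group was 0.22 in YFB_stipe and 0.26 in FB_stipe on the log2 scale. Both the components and the SDs cover only the 9967 genes with a mean of at least 5 CPM over the 6 libraries. Both groups put a similar part of their reads into a few genes. The 10 most abundant genes took 17.2% ± 2.4 of the reads in YFB_stipe and 15.5% ± 1.5 in FB_stipe (SD, n = 3 each).

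The labels name flowcells. YFB_stipe replicates 1 and 2 were on a flowcell without mature stipe, FB_stipe replicate 4 was alone on its flowcell, and FB_stipe replicates 2 and 3 shared a flowcell with YFB_stipe replicate 3. Both stages were thus sequenced side by side only in these last 3 libraries, and values from them are given beside main results below. A covariate for flowcell links the flowcell of YFB_stipe replicates 1 and 2 with the shared one, through YFB_stipe and other groups. It gives no link to the flowcell of FB_stipe replicate 4.

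As the stipe matured, more genes fell than rose by 2-fold or more. Of 13569 genes with enough reads to test, 1212 (8.93%) passed edgeR's quasi-likelihood test at a Benjamini-Hochberg adjusted p under 0.05 with at least a 2-fold change. Of these, 412 (3.04%) rose and 800 (5.9%) fell in FB_stipe. The median log2 fold change of the rises was 1.31 and that of the falls -1.50, against -0.05 over all tested genes. At 4-fold or more 218 genes were called (1.61% of tested genes), of which 172 (1.27%) fell and 46 (0.339%) rose. At 8-fold or more 29 fell and 9 rose. Without a fold cutoff the counts were near even, at 989 falls and 898 rises with an adjusted p under 0.05 in edgeR. In tissue samples of this kind fewer cells with a transcript and less of it per cell cannot be told apart. Most genes moved little, and 83.5% of the tested genes had a log2 fold change of under 1 in either direction.

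The 3 mature libraries lay wholly above the 3 young ones for 2452 genes (18.1%) and wholly below for 2982 genes (22%). Among called genes this held for 399 of the 412 rises and 791 of the 800 falls. No gene passed from reads in every library of one stage to no read in the other. At a minimum of 3 reads in every library of 1 stage, 0 genes had no read in all 3 libraries of the other, in either direction, and at a minimum of 10 reads the counts were again 0.

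The number of calls rested in part on single libraries. It was 558 without FB_stipe replicate 3 and 505 without YFB_stipe replicate 1, and the rises numbered 266 without YFB_stipe replicate 2. Within the shared flowcell 1 young library stood against 2 mature ones. That fit held the flowcell's 7 libraries, and its 2 residual degrees of freedom came from the FB_stipe pair and the YFB_cap pair, so the lone young library was assumed to vary as they do. It called 5 genes, all lower in the mature stipe, with 3052 genes at an unadjusted p under 0.05, and a call missed there says little about a gene. The changes within that flowcell had median log2 fold changes of 1.18 over the 412 rises and -1.48 over the 800 falls, and 292 and 665 of them past 2-fold. These 3 libraries are among the 6 that chose the genes, so the direction is not an independent check. With flowcell as a covariate over all 27 libraries, a fit in which FB_stipe replicate 4 carries no weight for the comparison, 707 genes were called.

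The genes that rose and those that fell differed in level. Genes were ranked by their mean log2(CPM + 1) over all 27 libraries and cut into quartiles. In the lowest quartile 28 genes rose and 314 fell, out of 3393. In the second, 79 rose and 272 fell. In the third, rises and falls were near even, at 145 and 134. In the highest quartile 160 rose and 80 fell. The median log2 fold change of all genes of a quartile ran in the same order, from -0.43 in the lowest through -0.24 and 0.11 to 0.24 in the highest. These 4 medians kept their signs in each of 15 alternative fits, and within the shared flowcell they were -0.49, -0.28, 0.10 and 0.35. The genes that rose had a median of 32.9 CPM in YFB_stipe and 88.5 CPM in FB_stipe, while those that fell had 10.7 and 3.60 CPM. Over all tested genes the medians were 19.7 and 18.9 CPM.

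**Figure D1:**
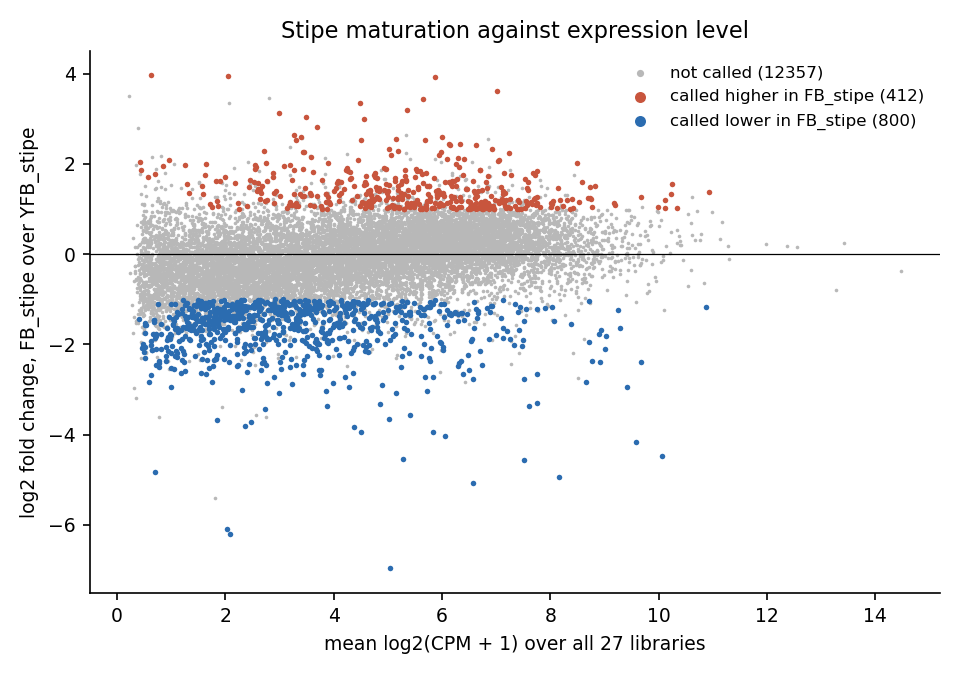
Log2 fold change of FB_stipe over YFB_stipe for each of 13569 tested genes (vertical axis) against its mean log2(CPM + 1) over 27 libraries (horizontal axis). Red points are the 412 genes called higher and blue points the 800 called lower at an adjusted p under 0.05 and 2-fold, and the blue points reach further from 0 and crowd towards low levels.

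In the main fit the quartiles of gene length differed less. Between 82 and 113 genes rose and between 166 and 224 fell in each length quartile. The quartile medians of the log2 fold change lay between -0.10 and 0.03, and those of the shortest and the longest quartile changed sign without YFB_stipe replicate 3, to 0.003 and -0.02. Within the shared flowcell the medians from the shortest to the longest quartile were -0.16, -0.16, -0.05 and 0.17. With flowcell as a covariate they were -0.16, -0.19, -0.09 and 0.15, so the longest genes stood highest in both fits. Of 157 tested gene models of at most 300 bases, 10 rose (6.37%) and 4 fell (2.55%), with a median of 0.28 that was -0.02 within the shared flowcell. Of 258 genes with under 90% uniquely mapped reads, whose counts can be shared with near-identical copies, 6 rose (2.33%) and 13 fell (5.04%), near the 3.04% and 5.9% of all tested genes.

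The most abundant transcripts were largely common to both stages. Ranked by the authors' TPM, which accounts for gene length, 9 of the top 10 genes and 67 of the top 100 were the same in the young and the mature stipe. The top 100 of either stage made up 133 genes, of which 11 rose (8.27%, against 3.04% of all tested genes) and 7 fell (5.26%, against 5.9%). In the highest quartile of level 4.72% rose and 2.36% fell. The same 6 libraries ranked and called these 133 genes, and a gene that changed could enter through 1 stage, so the shares are a description.

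A pair of genes gained the most normalised reads. Lenti6_1_182398 (1940 bases) had 707, 2141 and 1375 CPM in YFB_stipe replicates 1, 2 and 3, and 3885, 2964 and 3877 CPM in FB_stipe replicates 2, 3 and 4. All mature libraries lay above all young ones, and young replicate 1 was the lowest. Its log2 fold change was 1.34 ± 0.44 (SE, edgeR adjusted p = 0.0432). It was not called without any 1 of 5 of the 6 libraries (all but YFB_stipe replicate 2), with a log2 fold change of 1.02 and adjusted p = 0.195 without YFB_stipe replicate 1, and its adjusted p ran from 0.0137 to 0.195 over 15 alternatives. Lenti6_1_182398 was also high in P2_stipe (2745 ± 1244 CPM, SD, n = 3), and low in VM (151 ± 42.7 CPM).

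Lenti6_1_579596 (1087 bases) had 1034, 1327 and 1127 CPM in the young stipe and 2680, 3230 and 3203 CPM in the mature stipe, in the same replicate order. The groups stood well apart and both were tight. The log2 fold change was 1.39 ± 0.30 (SE, edgeR adjusted p = 0.00628), and 1.40 within the shared flowcell. With flowcell as a covariate the call was lost (log2 fold change 1.28, adjusted p = 0.0709, 0.0001 to 0.121 over 15 alternatives). Per length, its TPM went from 1217 ± 143 to 2817 ± 357 (SD, n = 3 each), which moved it from rank 58 to rank 21 of all genes.

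The largest losses were steeper. Lenti6_1_561202, a gene model of 339 bases, had 2202, 2797 and 6954 CPM in the young stipe, and 84.9, 299 and 153 CPM in the mature stipe. Even the highest mature library lay far below the lowest young one. The log2 fold change was -4.48 ± 0.62 (SE, edgeR adjusted p = 0.000533), with -3.81 without YFB_stipe replicate 3, the highest young library, and -5.07 without FB_stipe replicate 3. Within the shared flowcell it was -5.17, where the call was lost (adjusted p = 0.0843, the highest of 15 alternatives). Its mean TPM went from 13032 to 536, that is from rank 7 to rank 212. Lenti6_1_561202 stood at 4244 ± 843 CPM in P1 and 2944 ± 2321 CPM in P2_stipe (SD, n = 3 each). It was also high in VM (4010 ± 1768 CPM) and P2_cap (2223 ± 797 CPM, SD, n = 3 each). In the gills it was as low as in the mature stipe or lower (66.7 ± 8.28 CPM, SD, n = 3).

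Lenti6_1_611415 (1296 bases) had 4766, 3438 and 2383 CPM in YFB_stipe and 553, 386 and 445 CPM in FB_stipe. The log2 fold change was -2.93 ± 0.50 (SE, edgeR adjusted p = 0.00133), and -2.34 within the shared flowcell, where the call was lost (adjusted p = 0.151). Lenti6_1_611415 was also high in earlier stages, with 4120 ± 1247 CPM in P1 and 3228 ± 1351 CPM in P2_stipe (SD, n = 3 each). The vegetative mycelium (VM) had 2360 ± 554 CPM (SD, n = 3). The caps had 658 ± 203 CPM in P2_cap and 265 ± 159 CPM in YFB_cap, so that the mature stipe lay between them (SD, n = 3 each).

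**Figure D2:**
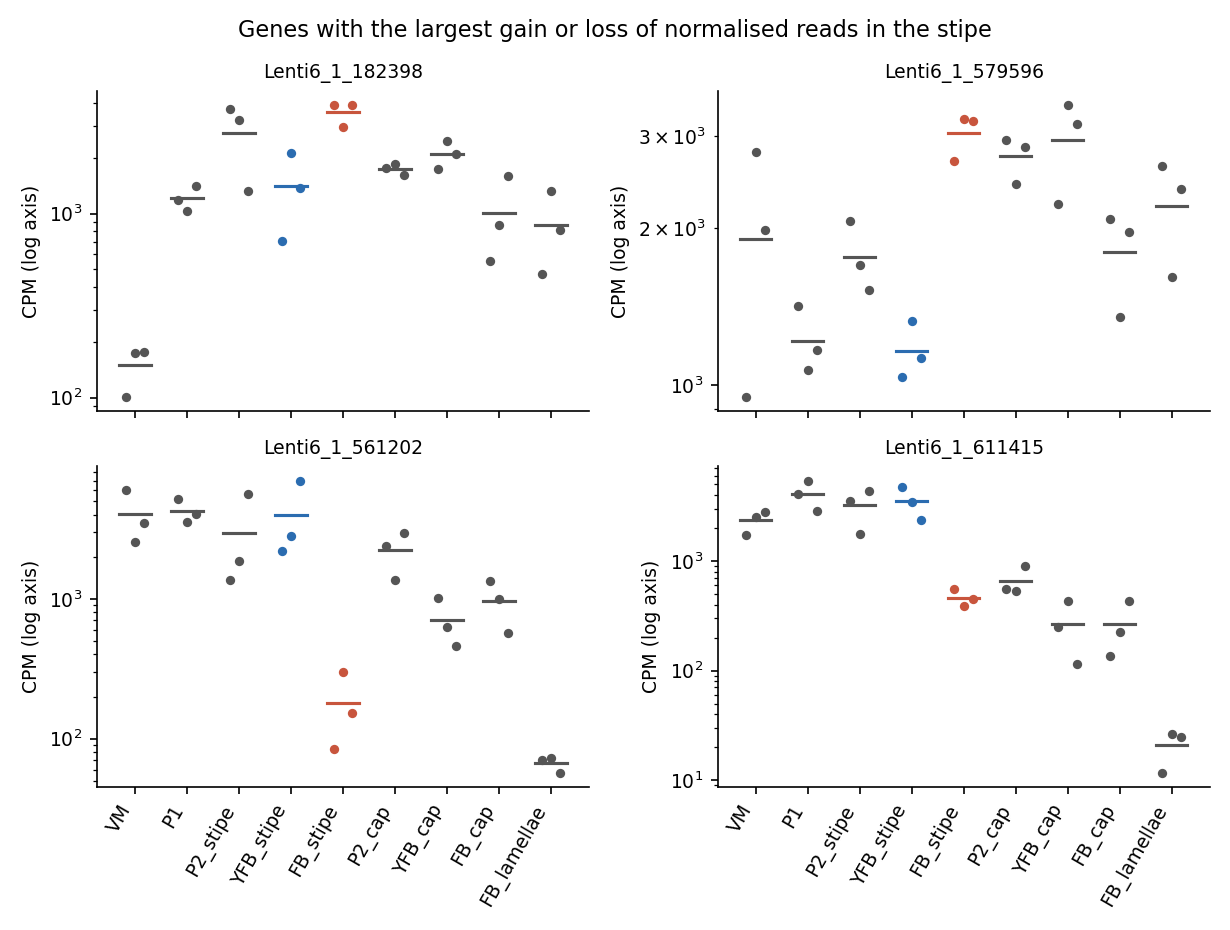
CPM (log axis) of the 2 genes with the largest gain and the 2 with the largest loss of normalised reads between YFB_stipe (blue) and FB_stipe (red), in each library of all 9 groups. Points are libraries and bars are group means, and in the lower panels FB_stipe lies below all P1, P2_stipe and YFB_stipe libraries.

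The changed genes held a visible part of the stipe's reads. The 412 rises took 2.59%, 3.04% and 3.10% of assigned reads in YFB_stipe replicates 1, 2 and 3, and 6.42%, 7.11% and 7.0% in FB_stipe replicates 2, 3 and 4. The 800 falls took 5.58%, 4.75% and 4.99% in the young stipe and 1.24%, 1.12% and 1.16% in the mature stipe. These values chose the genes and are given as a description. The other 7 groups played no part in the choice of direction, and they show where else these genes were used.

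Outside the stipe comparison, the genes that fell were mostly highest in the primordium or the mycelium. Their share of reads was 5.63% ± 0.87 in VM and 5.83% ± 0.40 in P1, near the young stipe, and 3.28% ± 0.43 in P2_stipe (SD, n = 3 each). FB_cap, at 5.05% ± 1.81 (SD, n = 3), also stood near the young stipe, with a wide spread from 3.65% to 7.09%. Of the 7 groups outside the comparison, P1 had the highest mean for 391 of the 800 genes (48.9%), against 14.1% of all tested genes, and VM for 252 (31.5%, against 24.7%). YFB_cap had the lowest mean for 292 of them (36.5%, against 19.5% of all tested genes).

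The genes that rose were most often highest in the young cap. Among the same 7 groups, YFB_cap had the highest mean for 178 of the 412 genes (43.2%), against 17.1% of all tested genes. P1 was the highest for 1 gene (0.243%, against 14.1%), and VM had the lowest mean for 217 (52.7%, against 24.7%). Their share of reads was 6.27% ± 0.95 in YFB_cap and 2.94% ± 0.18 in P1 (SD, n = 3 each). YFB_cap replicates 2 and 3 were near the mature stipe, with up to 7.15%, and shared a flowcell with FB_stipe replicates 2 and 3. YFB_cap replicate 1, on another flowcell, had 5.27%, near the mean of 5.34% in P2_cap and in FB_lamellae. Whether flowcell had a part in the likeness to the young cap was not tested.

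For neither set did P2_stipe lie between P1 and the young stipe. The rises had median levels of 31.4 CPM in P1, 48.2 in P2_stipe, 32.9 in YFB_stipe and 88.5 in FB_stipe. The falls had 11.9, 7.62, 10.7 and 3.60 CPM in the same order. For both sets P2_stipe thus stood nearer to the mature stipe than the young stipe did. The young stipe values were used in choosing the genes, so no test was made of this.

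**Figure D3:**
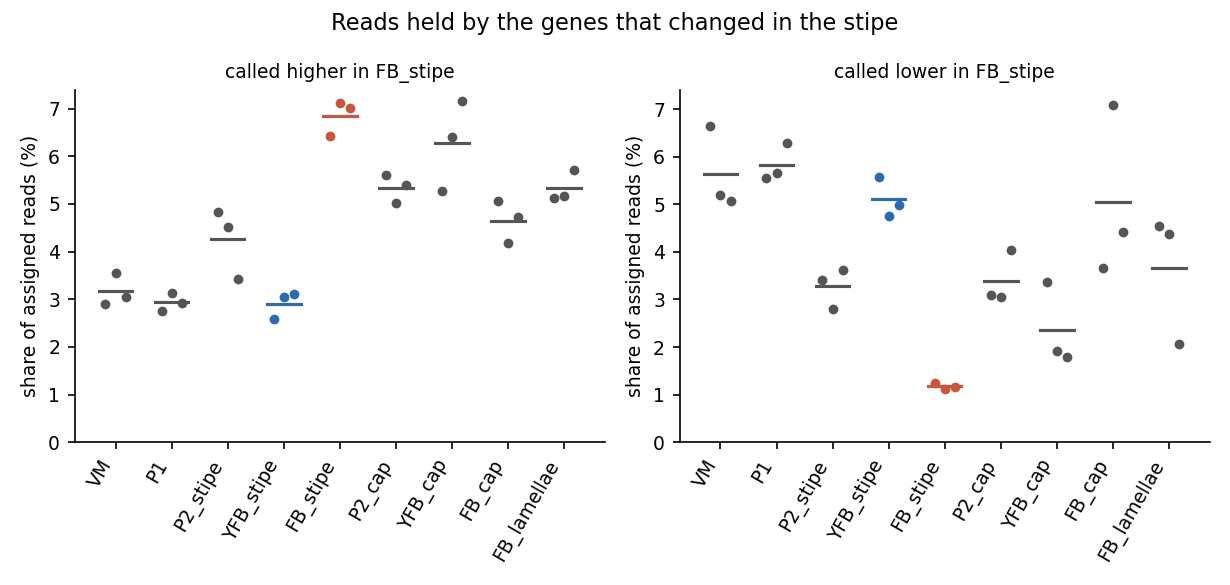
Share of assigned reads (percent) held by the 412 genes called higher (left) and the 800 called lower (right) in FB_stipe, in each library of all 9 groups. Points are libraries and bars are group means, with YFB_stipe in blue and FB_stipe in red. The risen genes were also high in YFB_cap and the fallen genes in VM, P1 and FB_cap, where 1 library reached 7.09%.

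Whether the stipe matures as the cap does was asked with the cap of the same 2 stages, which shares no library with the stipe. Genes called in both tissues mostly moved in opposite directions. Of the 1432 genes that rose from YFB_cap to FB_cap (10.6% of tested genes, out of 16.3% called in either direction), 152 fell (10.6%, against 5.9% of all tested genes) and 33 rose (2.30%, against 3.04%) in the stipe, with a median stipe log2 fold change of -0.38. Of the 773 genes that fell in the cap (5.7%), 99 rose (12.8%) and 17 fell (2.20%) in the stipe, with a median of 0.48. The median over all tested genes was -0.05. These cap lists had medians of -0.34 and 0.41 in the stipe within the shared flowcell, and of -0.54 to -0.31 and 0.32 to 0.60 over 15 alternative fits.

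In all, 301 genes were called in both tissues, which is 24.8% of the stipe calls and 13.7% of the cap calls. Of these, 251 moved in opposite directions and 50 in the same direction. Across all tested genes the log2 fold changes of stipe and cap had a Pearson correlation of -0.24 and a Spearman correlation of -0.32, as a description over 13569 genes that share libraries and are not replicates. The libraries of both tissues lay apart between stages and in opposite directions for 891 genes with the stipe higher (6.57%) and for 674 with the stipe lower (4.97%). They lay apart in the same direction for 426 (3.14%).

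Flowcells were spread unevenly over these groups. YFB_cap replicates 2 and 3 shared the flowcell of FB_stipe replicates 2 and 3 and YFB_stipe replicate 3, and no flowcell held both FB_cap and YFB_cap. With flowcell as a covariate, which reaches the cap step only through other groups, 23 genes were called in opposite and 15 in the same direction. Single libraries moved the number of opposite calls. Leaving out FB_stipe replicate 3 or 4 gave 84 or 119, YFB_stipe replicate 1 or 2 gave 99 or 139, YFB_cap replicate 2 or 3 gave 126 or 124, and FB_cap replicate 2 gave 127. In each of these fits more genes moved in opposite directions than together, 71.8% at the least among fits that leave out 1 library and 60.5% with the flowcell covariate.

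**Figure D4:**
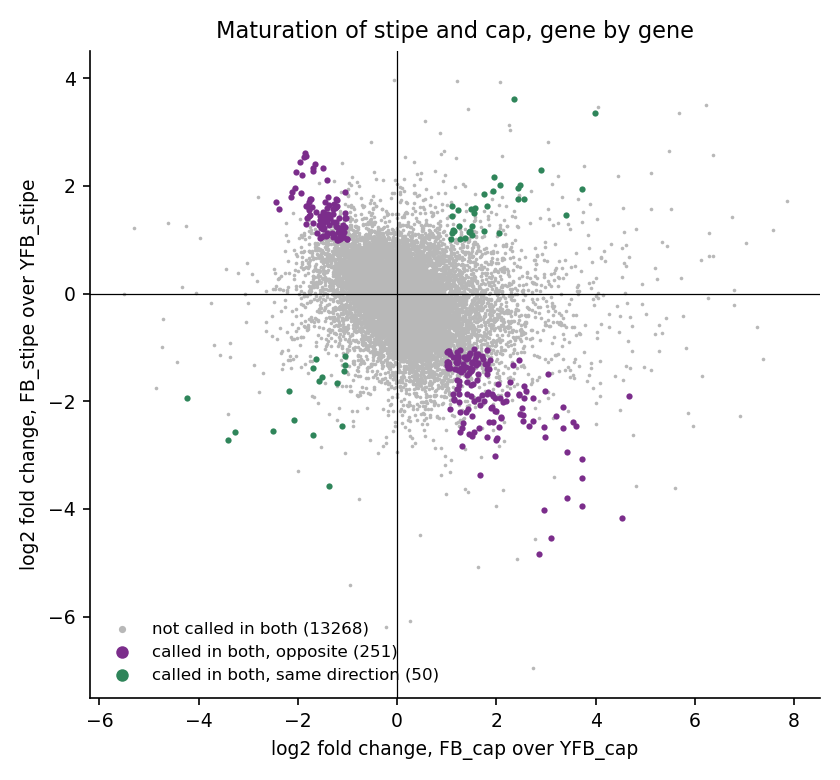
Log2 fold change from young to mature stipe (vertical axis) against that from young to mature cap (horizontal axis) for 13569 tested genes. Purple points are the 251 genes called in both tissues in opposite directions and green points the 50 called in the same direction.

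The difference itself was tested as the interaction of stage and tissue. edgeR called 3703 genes (27.3%) at the same thresholds, 1508 (11.1%) with a more positive and 2195 (16.2%) with a more negative change in the stipe than in the cap. Of the 1212 genes called in the stipe, 941 differed from the cap by this test and 271 did not pass it. A further 1428 genes were called for the difference while called in neither tissue alone. With flowcell as a covariate the interaction count was 1303, of which 662 were more positive in the stipe. FB_cap libraries spread more widely than the stipe libraries, with a median SD of 0.39 on the log2 scale over the same 9967 genes. The fit gives all groups 1 estimate of the spread per gene.

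The 99 genes that rose in the stipe and fell in the cap had median levels of 24.9 CPM in YFB_stipe and 73.0 in FB_stipe, against 90 in YFB_cap and 33.3 in FB_cap. The 152 genes of the reverse pattern had 16.7 and 5.15 CPM in the stipe and 5.70 and 21.8 CPM in the cap. These levels chose the genes and are given as a description. In the stage 2 primordium, which played no part in the choice, the 99 genes had 43.9 CPM in P2_stipe and 63.1 CPM in P2_cap, and the 152 genes had 12.8 and 8.01 CPM.

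The named genes were taken from those whose stages did not overlap in either tissue, moved in opposite directions and reached a group mean of 20 CPM. Of these, 817 had the stipe higher, with 684 called in the interaction, and 334 had it lower, with 300 called. Before the 20 CPM requirement the pool held 891 genes with the stipe higher and 674 with it lower. Over all tested genes 1508 were called more positive and 2195 more negative. The pool was filtered on the same stipe and cap values, so its balance cannot be set against that over all tested genes. The largest positive difference was in Lenti6_1_555848 (625 bases). It had 17.2, 20.1 and 43.4 CPM in YFB_stipe and 76.0, 183 and 233 CPM in FB_stipe, which is 2.61 ± 0.61 higher on the log2 scale (SE, adjusted p = 0.00899 in edgeR). That stipe call was lost without YFB_stipe replicate 1 (2.37, adjusted p = 0.0566), with flowcell as a covariate (2.00, adjusted p = 0.0597) and within the shared flowcell (1.59, adjusted p = 0.205), over a range of 0.000232 to 0.205 in 15 alternatives. In the cap it went from 131, 234 and 370 CPM to 87.0, 17.3 and 98.8 CPM. The mature stipe thus overlapped the young cap, and the young stipe overlapped the mature cap. The interaction log2 fold change was 4.46 ± 0.85 (SE, edgeR adjusted p = 0.00111), and 3.35 with flowcell as a covariate (adjusted p = 0.04).

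Lenti6_1_552168 (553 bases) followed with 16.3, 21.4 and 37.2 CPM in the young stipe, 55.2, 148 and 231 CPM in the mature stipe, 181 ± 58.5 CPM in YFB_cap and 49.7 ± 32.4 CPM in FB_cap (SD, n = 3 each). Its libraries ranked in the same order as those of Lenti6_1_555848 within each of the stipe groups. Its stipe log2 fold change was 2.53 (edgeR adjusted p = 0.0155), and 1.46 within the shared flowcell. That stipe call was lost with flowcell as a covariate (2.03, adjusted p = 0.0769) and with the replicate block (1.87, adjusted p = 0.0632). It was also lost without FB_stipe replicate 4, YFB_stipe replicate 1 or YFB_stipe replicate 2 (adjusted p = 0.0660, 0.0842 and 0.0586). The interaction log2 fold change was 4.40 ± 0.92 (SE, edgeR adjusted p = 0.00211), and the call was lost with flowcell as a covariate (3.11, adjusted p = 0.0653, 1.7e-05 to 0.0653 over 20 alternatives).

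The largest negative difference was in Lenti6_1_528932 (660 bases). It had 538, 414 and 1798 CPM in the young stipe and 3.06, 1.75 and 17.2 CPM in the mature stipe. In the cap it was near 0 at both stages, at 0.769 ± 0.087 CPM in YFB_cap and 5.15 ± 2.08 CPM in FB_cap (SD, n = 3 each), and its cap change did not pass the test (edgeR adjusted p = 0.163). The interaction log2 fold change was -9.70 ± 2.10 (SE, edgeR adjusted p = 0.00253), and -11.31 without FB_stipe replicate 4 and -8.76 without YFB_stipe replicate 3. With flowcell as a covariate it was -14.86.

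Lenti6_1_571860 (747 bases) was a low gene in the stipe, with 4.69, 14.9 and 3.39 CPM in YFB_stipe and 0.820, 0.911 and 0.144 CPM in FB_stipe, the last below the 0.198 CPM that 3 reads give in FB_stipe replicate 4. Its fall in the stipe did not pass the test (log2 fold change -3.60 ± 1.39 SE, edgeR adjusted p = 0.0862). In the cap it rose from 0.705 ± 0.144 CPM to 31.3, 69.0 and 3.51 CPM in FB_cap replicates 1, 2 and 3. The interaction log2 fold change was -9.21 ± 1.98 (SE, edgeR adjusted p = 0.00242), -8.20 without FB_cap replicate 2 and -8.29 without YFB_stipe replicate 2. It was not called with flowcell as a covariate (-5.94, adjusted p = 0.101, 2.9e-06 to 0.101 over 20 alternatives).

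**Figure D5:**
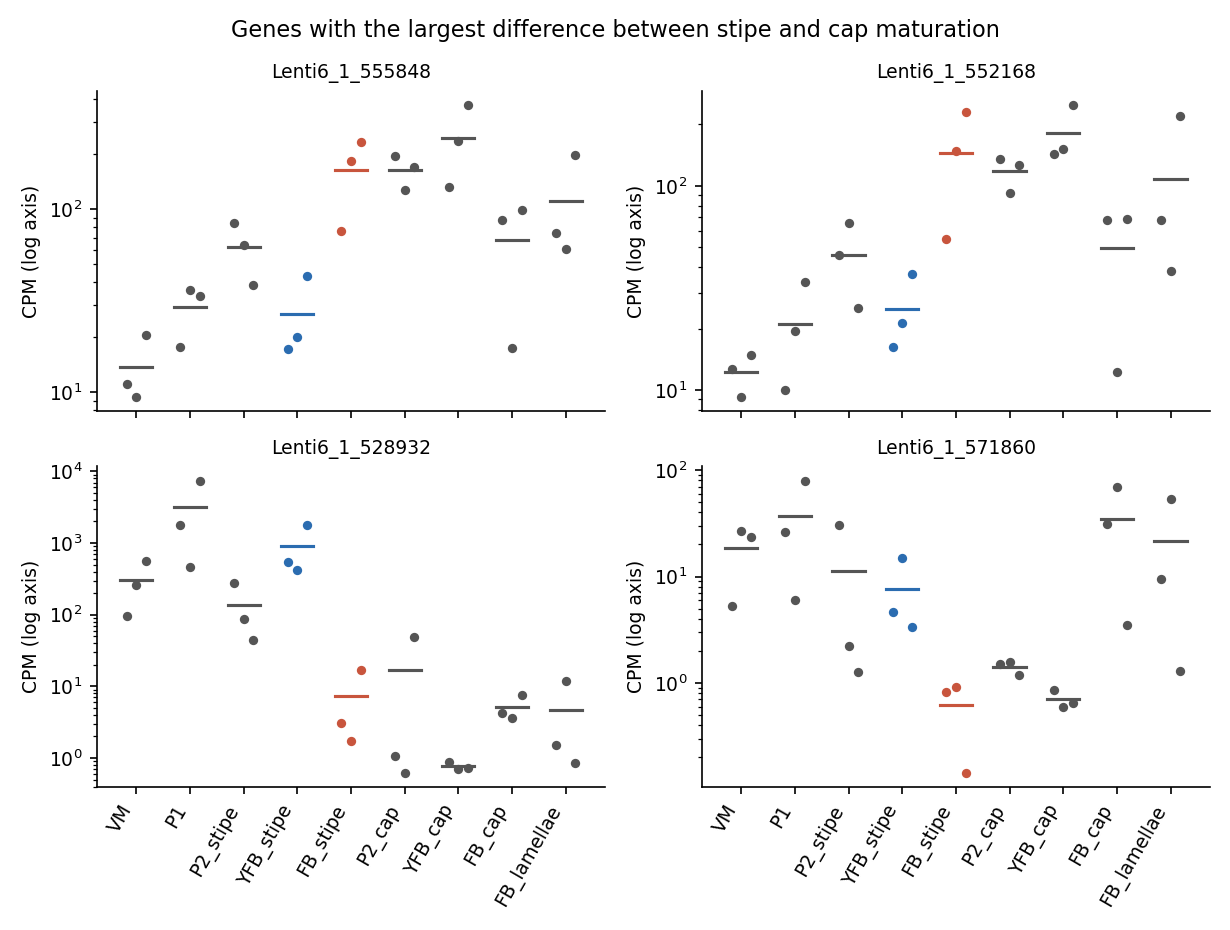
CPM (log axis) of the 4 genes with the largest differences between stipe and cap maturation, in each library of all 9 groups, with YFB_stipe in blue and FB_stipe in red. Points are libraries and bars are group means. In the upper panels FB_stipe lies near YFB_cap, and in the lower panels FB_stipe and YFB_cap are both low.

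Further lists came from contrasts between groups other than the young and mature stipe, in the same fit of all 27 libraries. That fit has 1 estimate of the spread per gene, to which the 6 stipe libraries contribute. A gene with a small spread is thus called more easily in every contrast, and these lists and the cap lists are not independent of the stipe calls. Whether this raised shares in both directions was not tested. The shares of each list are read against 3.04% higher and 5.9% lower over all tested genes. Between P2_cap and P2_stipe 7.78% of the tested genes differed. Of the 603 genes higher in P2_stipe than in P2_cap (4.44% of tested genes), 40 rose (6.63%) and 80 fell (13.3%) on stipe maturation, with a median log2 fold change of -0.15. Of the 453 genes higher in P2_cap (3.34%), 22 rose (4.86%) and 37 fell (8.17%), with a median of -0.14. Both directions were above their share over all tested genes in both lists. Of the 937 genes higher in P1 than in VM (6.91%, out of 15% called in either direction), 61 rose (6.51%) and 98 fell (10.5%), above the background. Of the 1097 lower in P1 (8.08%), 30 rose (2.73%) and 56 fell (5.10%), shares near the background. The median log2 fold change of these 1097 genes was -0.24, and -0.36 to -0.16 over 15 alternative fits. It was -0.10 for the 937 genes higher in P1 and -0.05 over all tested genes. The 253 genes lower in FB_lamellae than in FB_cap (1.86%, out of 2.41% called in either direction) held 45 falls (17.8%) and 13 rises (5.14%). Their median was -0.23, and it was -0.43 within the shared flowcell and -0.42 with flowcell as a covariate. The 74 genes higher in the gills (0.545%) held 6 falls (8.11%) and 2 rises (2.70%).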

How the data were processed

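Per the labels' protocols, PolyA RNA went into a TruSeq RNA v2 library kit, with no strand setting stated. The submitters' processing notes name limma 3.18.13, edgeR 3.4.2 and R 3.0.2 without their roles, and aligner settings are not given in the sources used. Per the file headers, the authors deposited for each library the count of all reads and of uniquely mapped reads per gene model, and TPM. The TPM recomputed from counts and lengths differed by at most 3.5e-10. A deposited log2 RPKM table and an RPKM column with 0 values above 0 were not used.

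Total counts were filtered with filterByExpr (minimum count 10, 13569 genes kept, 2012 removed), scaled by TMM and fitted with edgeR 4.0.16 (R 4.3.3, quasi-likelihood, 9 group means, 27 libraries, 18 residual degrees of freedom). The stipe contrast and its interaction with the cap contrast were tested two-sided, with p-values adjusted by Benjamini-Hochberg over all tested genes. Each standard error is the log2 fold change divided by the root of F. The functions were tested on simulated data. Within each group the counts of libraries differed by more than sampling noise (chi-square per degree of freedom 46.0 to 144). At 13.28 to 18.01 M reads counting error is small for abundant genes. It is larger in the lowest level quartile (mean log2(CPM + 1) from 0.22 to 2.46), which held 314 of the 800 falls. Strand being unknown, reads of overlapping genes cannot be told apart.

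Named genes were, for the stipe, the 2 rises and 2 falls with the largest change of group mean CPM among called genes whose libraries do not overlap, and for the interaction the 2 largest differences in each direction among called genes that do not overlap in either tissue, move in opposite directions and reach 20 CPM. Members, lists and rules were chosen with earlier results of these data known. Alternatives were RLE scaling, no filter, DESeq2 1.42.0, limma-voom (limma 3.58.1), unique reads, only the libraries compared, flowcell as a covariate, the replicate number as a block, 1 flowcell, no fold cutoff and leaving out each library.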

Additional observations from a re-analysis of the deposited data

Results flagged for a closer look

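Effects of maturation that differ between stipe and cap drew attention. By the interaction test in edgeR, 3703 of 13569 genes differed between the tissues at an adjusted p under 0.05 and 2-fold. The named genes among them had interaction log2 fold changes of 4.46 (Lenti6_1_555848, edgeR adjusted p = 0.00111), 4.40 (Lenti6_1_552168, 0.00211), -9.70 (Lenti6_1_528932, 0.00253) and -9.21 (Lenti6_1_571860, 0.00242). The rule that named them required stipe and cap libraries to move apart in opposite directions. Groups hold 3 libraries, so single libraries were not tested as outliers.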

How the results depend on the processing

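The stipe count of 1212 genes (412 higher, 800 lower) was 707 (242 and 465) with flowcell as a covariate, 708 (268 and 440) with the replicate block, 5 (0 and 5) within 1 flowcell and 1887 (898 higher) without a fold cutoff. Leaving out 1 library it ran from 505 to 1145, with 138 to 457 higher and 319 to 688 lower. The interaction count of 3703 was 1303 (662 and 641) with flowcell as a covariate. The 251 genes of opposite direction were 23 with flowcell as a covariate, 101 with the replicate block and 84 to 363 leaving out 1 library. The cause of these moves was not tested. Fits that left out libraries or added a covariate or block also had fewer residual degrees of freedom than the main fit. The replicate number is shared by 2 pairs only, whose deviations correlated at 0.26 (number 2) and 0.14 (number 3) over 9967 genes. Pairs of unlike numbers ran from -0.30 to 0.18. No label says what libraries of 1 number have in common, so the numbers were not taken to pair the libraries. In the block and covariate fits FB_stipe replicate 4 carries no weight. RLE scaling, no filter, DESeq2, limma-voom, unique reads and the fit of only the libraries compared left the stipe and interaction counts within 1.5 times, at 1127 to 1585 and 3412 to 4073. No named gene changed sign in any alternative. A count of 3 reads corresponds to 0.167 to 0.226 CPM in the stipe libraries, so changes below that level cannot be seen.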
